A study of Mus musculus with 12 samples.

Results

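The ZBTB genes encode transcription factors that join an N-terminal BTB domain, also called POZ, to C2H2 zinc fingers near the C terminus. Members were all genes of the deposited count table whose symbol starts with Zbtb and a digit, except Zbtb32, which gave 40 of the 16352 genes. Of these, 37 had enough reads to be tested, among 12404 tested genes. The transcription factor annotation in the deposited table named the ZBTB family for 34 of the 40. The other 6 were Zbtb5, Zbtb8os, Zbtb9, Zbtb10, Zbtb22 and Zbtb33. One of them, Zbtb8os, is named for lying on the opposite strand to Zbtb8a. It encodes Archease, a helper of the RNA ligase that joins tRNA exons, and not a BTB zinc finger protein, so its levels are described apart. By the rule it stays in the members' counts, shares, medians and sums, and in the figures of all tested members.

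In this family the zinc fingers read DNA, and the BTB domain makes dimers and recruits corepressors such as NCOR1, SIN3A and BCOR with their histone deacetylases. Most of the studied members silence genes, and some read methylated CpG. Several act as switches of lymphocyte fate in the mouse. ThPOK (Zbtb7b) is required for the CD4 lineage and is kept silent in CD8 T cells, and PLZF (Zbtb16) directs innate-like T cells.

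The libraries were primary CD8 T cells from C57BL/6 spleen, 3 in each of 4 groups: Trmt61A-cKO at 48 h, WT at 48 h, Trmt61A-cKO at 0 h and WT at 0 h. Trmt61a encodes the catalytic subunit of the methyltransferase that places m1A on tRNA, and cKO stands for its conditional knockout. The labels do not give the Cre driver, the treatment of the cells between 0 h and 48 h, or whether a replicate number marks a mouse. The p-values therefore measure the spread between these libraries, which may be technical.

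Read counts per library summed to between 34341847 and 40270659. Levels are CPM, counts scaled to a common library size with TMM factors, and tests are edgeR quasi-likelihood tests over all 12 libraries, called at a Benjamini-Hochberg adjusted p under 0.05 over all tested genes. A ± after a log2 fold change is its standard error. Trmt61a was 42.5, 0.956 and 1.10 CPM in cKO libraries at 48 h, against 42.0, 38.2 and 34.8 CPM in WT libraries at 48 h. At 0 h it was 28.1, 0.807 and 1.88 CPM in cKO libraries, against 27.4, 29.8 and 26.3 CPM in WT libraries. The libraries labelled cKO replicate 1 thus held Trmt61a at the WT level at both times, so genotype results are also given without them. The 7 CD8 T cell markers (Cd3d, Cd3e, Cd3g, Cd8a, Cd8b1, Lck and Thy1) were all detected, and their sum was between 2848 and 6799 CPM in every library, lower at 48 h than at 0 h.

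Over the 48 h the ZBTB genes fell more often than they rose. In cells labelled cKO 18 of 37 fell, which was 48.6% of the members beside 36.2% of all tested genes, and 7 rose, 18.9% beside 36.4%. In WT cells 21 of 37 fell, 56.8% beside 38.4%, and 4 rose, 10.8% beside 36.9%. Zbtb8os, not a BTB zinc finger gene, is counted among the members that rose in each genotype. The members' median log2 fold change was -0.26 in cKO and -0.38 in WT, beside -0.02 over all tested genes in each genotype. The libraries of the 2 times did not overlap for 18 lower and 7 higher members in cKO, beside 37.5% and 37.3% of all tested genes, and for 21 lower and 5 higher members in WT, beside 39.9% and 39.0%. Most changes were small: falls of at least 2-fold were called for 3 members in cKO, beside 16.6% of all tested genes, and for 4 in WT, beside 19.7%. Rises of at least 2-fold were called for 2 members in cKO, beside 19.0%, and for 1 in WT, beside 20.9%. In bulk RNA, fewer cells of a type and less RNA per cell cannot be told apart.

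The 40 genes together summed to 1080.6, 1149.4 and 1100.6 CPM in cKO libraries at 48 h and to 1034.6, 1047.2 and 999.1 CPM in WT libraries at 48 h. At 0 h they summed to 1478.2, 1388.5 and 1346.5 CPM in cKO libraries and to 1469.2, 1496.2 and 1526.3 CPM in WT libraries. Every 48 h library lay below every 0 h library. Markers of CD8 T cells, B cells and erythroid cells also fell over this time. The summed CD4 T cell markers in cKO and the summed dendritic cell markers in both genotypes were higher at 48 h, as given below. All 7 CD8 T cell markers fell in each genotype, with a median log2 fold change of -1.31 in cKO and -1.41 in WT, and their sum was 2848 to 3179 CPM in cKO and 3089 to 3231 CPM in WT at 48 h, against 6514 to 6799 CPM in cKO and 6149 to 6642 CPM in WT at 0 h. All 7 B cell markers fell in each genotype, and their sum was 23.1 to 24.4 CPM in cKO and 19.6 to 31.5 CPM in WT at 48 h, against 87.8 to 106 CPM in cKO and 108 to 184 CPM in WT at 0 h. All 6 erythroid markers fell as well, to a sum of 0.105 to 2.36 CPM in cKO and 0.0246 to 0.319 CPM in WT at 48 h, against 54.6 to 109.8 CPM in cKO and 9.23 to 96.4 CPM in WT at 0 h. The part of other cells in the members' changes was not tested.

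**Figure D1:**
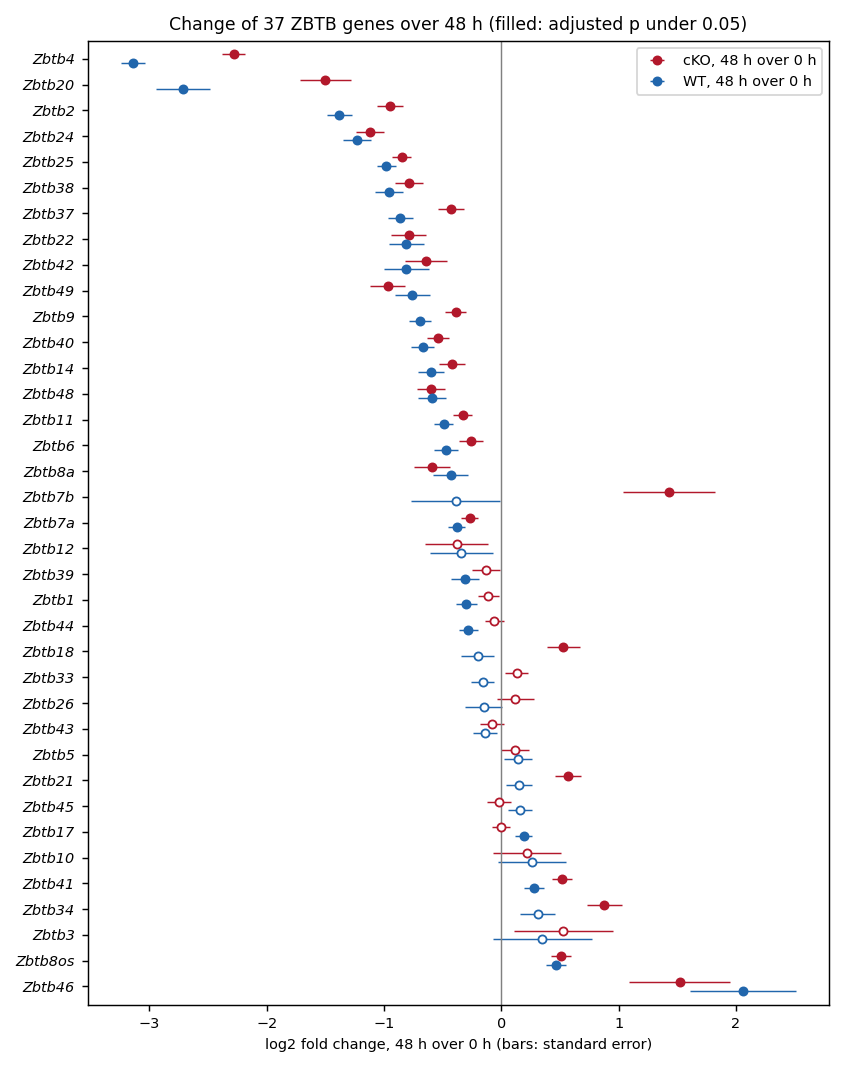
Log2 fold change from 48 h over 0 h for the 37 tested ZBTB genes, in cKO (red) and WT (blue), with bars for the standard error and filled points for an adjusted p under 0.05. Zbtb4 and Zbtb20 lie farthest to the left in both genotypes, at -2.28 and -1.50 in cKO and at -3.14 and -2.71 in WT, and Zbtb46 farthest to the right in both.

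The largest fall was that of Zbtb4, a repressor related to Kaiso that binds methylated CpG. In cKO it was 18.9, 25.4 and 22.2 CPM at 48 h, against 108, 109 and 106 CPM at 0 h. In WT it was 12.8, 12.6 and 13.5 CPM at 48 h, against 104, 117 and 122 CPM at 0 h. The times did not overlap in either genotype, and the log2 fold changes were -2.28 ± 0.098 in cKO (edgeR adjusted p 4.23e-11) and -3.14 ± 0.10 in WT (adjusted p 2.15e-12). Per kilobase of merged exon, Zbtb4 ranked 25 among the members in cKO and 29 in WT at 48 h, and was the fourth most abundant in WT at 0 h.

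Zbtb20, a repressor known for silencing alpha-fetoprotein in mouse liver, had the second largest fall. The cKO libraries held 16.8, 24.5 and 16.2 CPM at 48 h, against 60.5, 52.5 and 50.2 CPM at 0 h. The WT libraries held 10.8, 10.5 and 6.05 CPM at 48 h, against 43.4, 66.0 and 68.6 CPM at 0 h. Every library was lower at 48 h than any at 0 h, with log2 fold changes of -1.50 ± 0.22 in cKO (edgeR adjusted p 1.93e-05) and -2.71 ± 0.23 in WT (adjusted p 5.30e-08).

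Zbtb2, described in human cells as a repressor of the p53 pathway, was 25.9, 23.9 and 20.7 CPM in cKO at 48 h, against 44.4, 46.2 and 45.9 CPM at 0 h. In WT it was 24.8, 18.8 and 19.9 CPM at 48 h, against 57.0, 54.1 and 54.3 CPM at 0 h. It was lower in every 48 h library, with log2 fold changes of -0.95 ± 0.11 in cKO and -1.38 ± 0.11 in WT. Zbtb24, whose human gene is mutated in a form of the ICF immunodeficiency syndrome, was 18.2, 23.7 and 20.6 CPM in cKO at 48 h, against 45.8, 45.8 and 43.8 CPM at 0 h. Its level in WT was 16.1, 21.5 and 18.3 CPM at 48 h, against 40.2, 49.3 and 41.5 CPM at 0 h. The 48 h and 0 h libraries of Zbtb24 did not overlap, and its log2 fold change was -1.12 ± 0.12 in cKO and -1.23 ± 0.12 in WT.

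Zbtb25, described in human T cells as a repressor of NFAT-driven genes, was 40.6, 42.7 and 45.2 CPM in cKO at 48 h, against 77.8, 77.4 and 76.1 CPM at 0 h. In WT libraries the level was 39.4, 40.3 and 37.5 CPM at 48 h, against 81.4, 81.4 and 68.4 CPM at 0 h. The log2 fold change was -0.85 ± 0.079 in cKO and -0.98 ± 0.079 in WT. Zbtb38, which like Zbtb4 binds methylated CpG, was 22.9, 28.6 and 28.4 CPM in cKO at 48 h, against 45.4, 49.6 and 43.6 CPM at 0 h, a log2 fold change of -0.79 ± 0.12. The level in WT was 24.5, 28.9 and 24.2 CPM at 48 h, against 57.3, 48.1 and 45.2 CPM at 0 h, a log2 fold change of -0.96 ± 0.12. The times did not overlap for either gene in either genotype.

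Zbtb37, a member whose function is little known, was 50.3, 62.0 and 54.5 CPM in cKO at 48 h, against 82.4, 76.1 and 66.0 CPM at 0 h, a log2 fold change of -0.43 ± 0.11. In WT it was 40.2, 43.7 and 36.2 CPM at 48 h, against 63.5, 77.0 and 77.2 CPM at 0 h, a log2 fold change of -0.86 ± 0.11. The fall in cKO missed the threshold when both libraries labelled cKO replicate 1 were left out, at an edgeR adjusted p of 0.0510. Zbtb22, a gene of the extended major histocompatibility complex region, was 24.6, 25.4 and 24.3 CPM in cKO at 48 h, against 48.9, 34.1 and 45.9 CPM at 0 h, a log2 fold change of -0.79 ± 0.15. The WT libraries held 25.1, 21.7 and 25.7 CPM at 48 h, against 42.1, 51.0 and 34.3 CPM at 0 h, a log2 fold change of -0.81 ± 0.15. Both genes were lower in every 48 h library than in any 0 h library of the same genotype.

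The third methyl-CpG binder of the Kaiso group, Zbtb33 (Kaiso), was called in neither genotype. It averaged 44.5 ± 2.94 CPM in cKO and 44.1 ± 4.39 CPM in WT at 48 h, and 40.6 ± 3.91 CPM in cKO and 49.4 ± 3.05 CPM in WT at 0 h (SD, n = 3 each). The levels of Zbtb33 at 48 h and 0 h overlapped in both genotypes, whereas those of Zbtb4 and Zbtb38 did not.

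Among the other members that fell in WT, log2 fold changes ran from -0.81 for Zbtb42 to -0.28 for Zbtb44, with Zbtb49, Zbtb9, Zbtb40, Zbtb14, Zbtb48, Zbtb11, Zbtb6, Zbtb8a, Zbtb7a, Zbtb39 and Zbtb1 between them. Of these 13, Zbtb39, Zbtb1 and Zbtb44 were not called in cKO. The fall of Zbtb6 in cKO, -0.26 on the log2 scale at an edgeR adjusted p of 0.0351, lost its call in 11 of 22 alternatives, among them DESeq2 (adjusted p 0.0541), both libraries labelled cKO replicate 1 left out (0.147), and cKO replicate 1 at 0 h (0.226), cKO replicates 2 or 3 at 48 h (0.0587 and 0.164) or WT replicates 1, 2 or 3 at 48 h (0.0545, 0.0522 and 0.0545) left out. Levels of Zbtb39 in cKO averaged 15.8 ± 1.04 CPM at 48 h and 17.3 ± 1.50 CPM at 0 h, and those of Zbtb44 averaged 75.5 ± 5.65 CPM at 48 h and 78.6 ± 4.43 CPM at 0 h (SD, n = 3 each). The adjusted p of Zbtb39, Zbtb1, Zbtb44 and Zbtb8a in WT rose above 0.05 when both WT replicate 3 libraries were left out, to 0.270, 0.0505, 0.0668 and 0.175. The call of Zbtb39 was also lost without WT replicates 2 or 3 at 0 h or 3 at 48 h (adjusted p up to 0.151), and that of Zbtb8a without WT replicate 3 at 0 h or WT replicates 2 or 3 at 48 h (up to 0.0770).

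Few members rose. Zbtb46, which marks classical dendritic cells in the mouse, was 2.58, 3.88 and 3.07 CPM in cKO at 48 h, against 0.538, 0.952 and 1.82 CPM at 0 h. WT cells held 2.34, 2.63 and 3.66 CPM at 48 h, against 0.642, 0.958 and 0.467 CPM at 0 h. All 48 h libraries were above all 0 h libraries, with log2 fold changes of 1.52 ± 0.43 in cKO (edgeR adjusted p 0.00563) and 2.06 ± 0.45 in WT (adjusted p 0.000734). The 6 dendritic cell markers summed to between 7.62 and 20.4 CPM in cKO and 15.3 and 27.1 CPM in WT at 48 h, against 2.42 to 5.62 CPM in cKO and 4.34 to 8.73 CPM in WT at 0 h. Nearly all of the 48 h sum was Batf3, a factor that T cells also express, at 7.36 to 20.3 CPM in cKO and 15.1 to 27.0 CPM in WT. Clec9a and Siglech were at 0 in all 48 h libraries, Xcr1 was at most 0.153 CPM there, and Flt3 and Itgax fell in both genotypes. The part of dendritic cells in the Zbtb46 rise was not tested.

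Zbtb41 was 35.6, 34.6 and 32.2 CPM in cKO at 48 h, against 26.3, 22.3 and 22.8 CPM at 0 h, a log2 fold change of 0.52 ± 0.086. Its level in WT was 31.0, 32.2 and 31.0 CPM at 48 h, against 25.8, 26.1 and 25.5 CPM at 0 h, a log2 fold change of 0.28 ± 0.086. It was higher in every 48 h library than in any 0 h library. Zbtb17 (Miz-1), a partner of Myc that is needed for early lymphocyte development in the mouse, overlapped between the times in cKO, at 51.1, 46.6 and 47.1 CPM at 48 h and 52.8, 45.4 and 46.6 CPM at 0 h. In WT it was 53.1, 49.0 and 52.2 CPM at 48 h, against 45.6, 45.6 and 44.2 CPM at 0 h, a log2 rise of 0.19 ± 0.075 (edgeR adjusted p 0.0346). The Zbtb17 call was lost in 8 of 22 alternatives, among them no filter on low counts (adjusted p 0.0595) and leaving out any one of WT replicates 1, 2 or 3 at 0 h (0.0640, 0.0638 and 0.0921) or WT replicates 1 or 3 at 48 h (0.114 and 0.0860). Under upper-quartile scaling the median log2 fold change of all tested genes shifted by -0.093 in cKO and -0.104 in WT. With it Zbtb17 and Zbtb41 were not called in WT, and Zbtb33 and Zbtb43 were called lower there.

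Apart from the zinc finger genes, Zbtb8os (Archease) was 38.1, 40.9 and 40.9 CPM in cKO at 48 h, against 25.8, 30.4 and 27.8 CPM at 0 h. In WT libraries the level was 40.0, 36.3 and 37.8 CPM at 48 h, against 26.3, 27.4 and 28.9 CPM at 0 h. It rose in both genotypes without overlap, by 0.51 ± 0.085 in cKO and 0.47 ± 0.085 in WT on the log2 scale. Zbtb8a, its neighbour on the other strand with 264 exon bases in common, fell by 0.59 in cKO and by 0.43 in WT.

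In cells labelled cKO, Zbtb7b, Zbtb34, Zbtb21 and Zbtb18 also rose over the 48 h, by 1.43 ± 0.39, 0.88 ± 0.15, 0.57 ± 0.11 and 0.53 ± 0.14 on the log2 scale. With all 12 libraries none of these 4 was called in WT, where Zbtb34 changed by 0.31 ± 0.15 (edgeR adjusted p 0.0789). Removing WT replicate 3, either its 48 h library or both of its libraries, gave a call for higher Zbtb34 in WT. So did removing cKO replicate 3 at 0 h. The rise of Zbtb34 may therefore not be limited to cKO. Zbtb34 averaged 16.8 ± 0.859 CPM in cKO at 48 h, against 9.10 ± 1.78 CPM at 0 h, and in WT 15.4 ± 2.42 CPM at 48 h, against 12.4 ± 0.479 CPM at 0 h (SD, n = 3 each). Zbtb21 averaged 47.0 ± 4.82 CPM in cKO at 48 h, against 31.8 ± 1.30 CPM at 0 h, and in WT 39.0 ± 5.71 CPM at 48 h, against 35.2 ± 3.93 CPM at 0 h. The edgeR test of the interaction, the difference between the genotypes' changes, called none of these 4 with all 12 libraries, whereas DESeq2 called Zbtb18 (adjusted p 0.0202) and Zbtb7b (0.0180).

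The remaining tested members, Zbtb3, Zbtb5, Zbtb10, Zbtb12, Zbtb26, Zbtb33, Zbtb43 and Zbtb45, were called in neither genotype. Of these, Zbtb3 was the least abundant, at 1.12 to 2.57 CPM in cKO and 1.30 to 1.96 CPM in WT at 48 h, and 0.896 to 1.53 CPM in cKO and 0.993 to 1.51 CPM in WT at 0 h. Zbtb10 was called higher at 48 h in cKO once both libraries labelled cKO replicate 1 were left out.

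Windows at RefSeq starts are shown for the members with the largest time changes or a genotype difference, namely Zbtb4, Zbtb20, Zbtb37 and Zbtb46. The 300 bases around each RefSeq start (build GRCm38.p6) are written on the gene's own strand, with CpG dinucleotides in capitals, the bases that methyl-CpG readers such as Zbtb4 and Zbtb33 can bind when methylated. They lie at chr11:69765662-69765961 on the plus strand for Zbtb4, chr16:43247034-43247333 on the plus strand for Zbtb20, chr1:161034800-161035099 on the minus strand for Zbtb37 and chr2:181424339-181424638 on the minus strand for Zbtb46.
Zbtb4: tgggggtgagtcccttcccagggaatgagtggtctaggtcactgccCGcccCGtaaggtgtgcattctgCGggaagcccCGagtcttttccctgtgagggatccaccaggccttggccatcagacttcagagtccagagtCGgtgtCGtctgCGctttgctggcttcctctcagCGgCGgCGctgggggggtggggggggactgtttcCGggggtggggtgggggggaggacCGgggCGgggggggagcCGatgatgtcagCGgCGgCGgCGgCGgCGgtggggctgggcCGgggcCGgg
Zbtb20: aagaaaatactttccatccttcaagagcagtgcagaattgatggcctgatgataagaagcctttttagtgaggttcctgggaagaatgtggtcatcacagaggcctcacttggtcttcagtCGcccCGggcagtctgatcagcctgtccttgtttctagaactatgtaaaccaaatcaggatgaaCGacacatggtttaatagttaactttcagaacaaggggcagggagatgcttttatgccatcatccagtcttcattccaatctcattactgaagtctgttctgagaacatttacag
Zbtb37: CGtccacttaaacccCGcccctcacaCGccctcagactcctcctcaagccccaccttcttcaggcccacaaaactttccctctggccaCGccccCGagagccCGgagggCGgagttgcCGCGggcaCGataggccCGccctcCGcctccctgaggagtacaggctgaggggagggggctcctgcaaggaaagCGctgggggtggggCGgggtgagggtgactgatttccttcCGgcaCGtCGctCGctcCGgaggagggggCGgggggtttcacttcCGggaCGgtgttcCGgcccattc
Zbtb46: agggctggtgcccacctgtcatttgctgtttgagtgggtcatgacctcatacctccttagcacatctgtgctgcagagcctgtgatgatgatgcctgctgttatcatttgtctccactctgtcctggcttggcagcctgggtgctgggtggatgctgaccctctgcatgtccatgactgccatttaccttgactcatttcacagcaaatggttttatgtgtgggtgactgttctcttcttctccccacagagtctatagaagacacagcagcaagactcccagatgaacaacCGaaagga
The windows of Zbtb4 and Zbtb37 held 22 and 23 CpG, and those of Zbtb20 and Zbtb46 held 3 and 1. Whether transcription begins at these RefSeq starts in these cells was not tested. The low CpG counts of Zbtb20 and Zbtb46 may therefore not be those of the promoters in use. RefSeq promoters were found for 35 of the 40 members, 47 windows in all, with a median of 25 CpG and a range of 1 to 56, beside a median of 7 over all 32851 windows of the table.

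Motif words were searched on both strands of these windows, and a match is a description of the letters, not a site. The E-box CACGTG was in 12.8% of the members' windows and 7.15% of all windows. The ETS-type word CCGGAAGT was in 8.51% and 3.89%, the NRF1-type word in 6.38% and 0.971%, and the cAMP response element TGACGTCA in 4.26% and 1.79%. The Kaiso-type word TCCTGCNA was in 8.51% and 4.96%, the CCAAT word in 29.8% and 37.4%, and the E2F-type word GGCGGGAA in 0% and 2.19%. Several windows of 1 gene overlap, so windows are not independent. The counts are small: the NRF1-type word was in 3 of the 47 members' windows, among them overlapping windows of Zbtb17 with the same match. The E-box, ETS-type, NRF1-type, cAMP response element and E2F-type words contain CpG. The members' windows held a median of 25 CpG beside 7 over all windows, and the part of this in the shares was not tested. Of the 4 windows printed, that of Zbtb37 held the ETS-type and the Kaiso-type word, that of Zbtb20 held CCAAT, and those of Zbtb4 and Zbtb46 held none of these words.

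At 48 h, cKO libraries held more Zbtb4, Zbtb20 and Zbtb37 than WT libraries, and no member was called lower. These 3 of 37 are 8.11% of the members, beside 3.10% of all tested genes called higher and 1.09% called lower. At an unadjusted p under 0.05, 7 members were higher, 18.9% beside 12.6% of all tested genes, and none lower, beside 9.59%. The libraries of the genotypes did not overlap for 9 members that were all higher in cKO (24.3%, beside 13.2% of all tested genes) and for 1 that was all lower (2.70%, beside 11.0%).

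**Figure D2:**
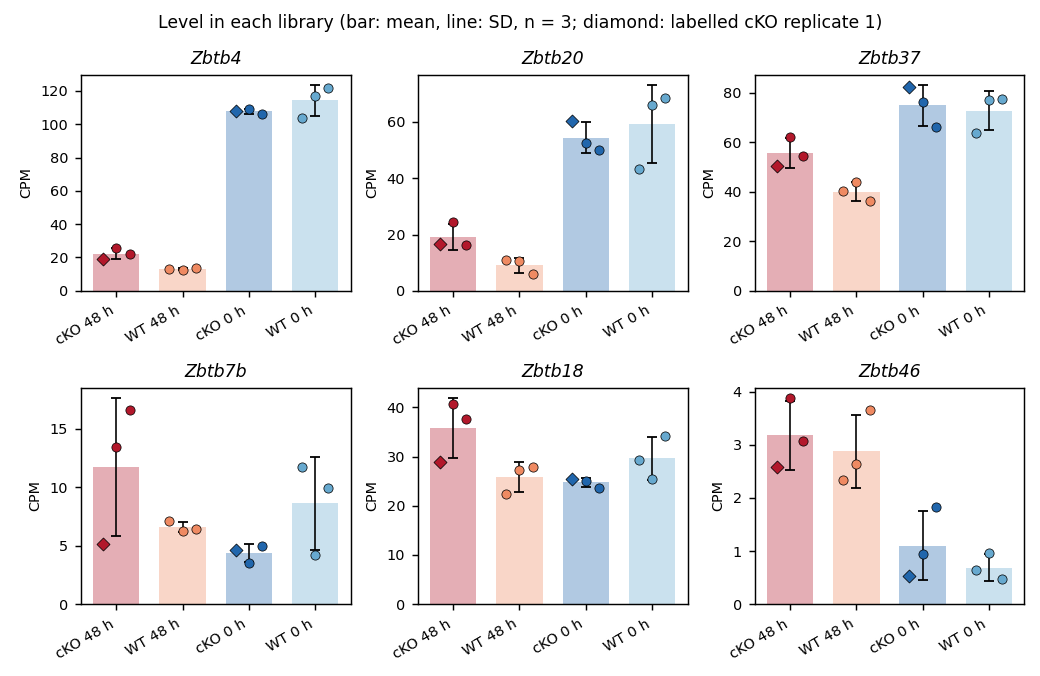
Level in CPM of 6 members in each library, grouped as cKO 48 h, WT 48 h, cKO 0 h and WT 0 h, with bars for the mean, lines for the SD (n = 3) and diamonds for the libraries labelled cKO replicate 1. At 48 h Zbtb4 is 18.9 to 25.4 CPM in cKO, above the 12.6 to 13.5 CPM of WT, and the diamond of Zbtb7b, at 5.16 CPM, lies below all WT libraries.

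Zbtb4 differed at 48 h by 0.77 ± 0.099 on the log2 scale (95% interval 0.54 to 1.00, edgeR adjusted p 0.00220), with every cKO library above every WT library. For Zbtb20 it was 1.08 ± 0.22 (0.56 to 1.60, adjusted p 0.0187), again without overlap. For Zbtb37 it was 0.47 ± 0.11 (0.22 to 0.73, adjusted p 0.0317), and its lowest cKO library, 50.3 CPM, was above its highest WT library, 43.7 CPM. All 3 genes had fallen over the 48 h in both genotypes, so their cKO levels at 48 h lay between the WT level at 48 h and the levels at 0 h. The 7 myeloid markers also differed at 48 h, with a sum of 2.96 to 4.59 CPM in cKO and 0.571 to 0.664 CPM in WT. Of these, S100a8 and S100a9, calcium-binding proteins of neutrophils, were called higher in cKO, at 0.511 to 1.02 and 1.07 to 1.94 CPM in cKO, against at most 0.0266 CPM of S100a8 and 0 counts of S100a9 in WT, while Cd14 was at 0 in all cKO libraries. At 0 h S100a8 was already 0.777 to 2.18 CPM in cKO and 0.321 to 0.507 CPM in WT. S100a9 was 1.67 to 3.02 CPM in cKO and 0.254 to 1.05 CPM in WT at 0 h. None of the 7 was called there, and their sums overlapped, at 18.7 to 35.7 CPM in cKO and 25.9 to 32.8 CPM in WT. The part of myeloid cells in the members' differences was not tested.

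The call for Zbtb4 was made under every alternative tried. Those for Zbtb20 and Zbtb37 were lost with only the 2 groups compared and when some single libraries were left out. Without both WT replicate 3 libraries, the log2 fold changes were 0.80 ± 0.12 for Zbtb4 (edgeR adjusted p 0.0335), 0.85 ± 0.21 for Zbtb20 (0.0997) and 0.40 ± 0.12 for Zbtb37 (0.181). The adjusted p without WT replicate 3 at 48 h was 0.0914 for Zbtb20 and 0.150 for Zbtb37, and without cKO replicate 2 at 48 h it was 0.105 for Zbtb20 and 0.148 for Zbtb37. Zbtb37 also lost the call without cKO replicate 3 at 48 h (0.0584) or WT replicate 1 at 48 h (0.0670).

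When the pair labelled cKO replicate 1 was left out, 5 members were called higher at 48 h, beside 8.96% of all tested genes, and 1 was called lower, beside 8.78%. The 5 were Zbtb4 at 0.87 ± 0.090 on the log2 scale (edgeR adjusted p 0.000143), Zbtb20 at 1.16 ± 0.24 (0.00685), Zbtb37 at 0.54 ± 0.11 (0.00591), Zbtb18 at 0.60 ± 0.13 (0.00722) and Zbtb7b at 1.18 ± 0.31 (0.0209). The member called lower was Zbtb45, at -0.32 ± 0.093 (0.0329). With all 12 libraries edgeR did not call Zbtb18, Zbtb7b and Zbtb45, at adjusted p of 0.0673, 0.215 and 0.287. Zbtb18 was called higher on all 12 libraries by DESeq2 (adjusted p 0.0193) and by edgeR with no filter on low counts (0.0433). It was also called on the 48 h libraries alone by edgeR with the replicate block (adjusted p 0.0134). That block matches same-numbered cKO and WT libraries, for which the labels give no link.

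**Figure D3:**
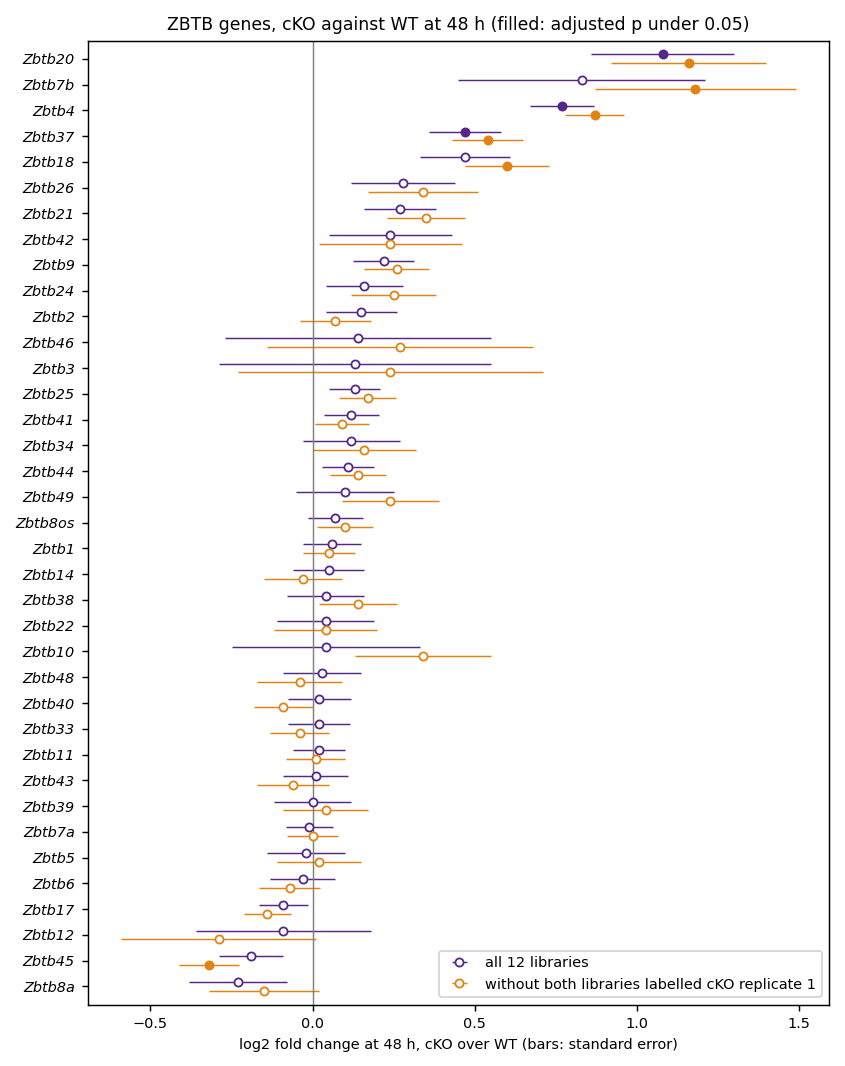
Log2 fold change at 48 h, cKO over WT, for the 37 tested ZBTB genes, with all 12 libraries (purple) and without both libraries labelled cKO replicate 1 (orange), with bars for the standard error and filled points for an adjusted p under 0.05. With all libraries 3 members are filled, and without those libraries 5 on the right and Zbtb45 on the left.

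Zbtb18 (RP58), a repressor best known from the developing mouse brain, was 28.9, 40.7 and 37.7 CPM in cKO at 48 h, against 22.3, 27.2 and 27.9 CPM in WT at 48 h. The cKO libraries were all higher, the lowest being the library labelled cKO replicate 1. At 0 h it was 25.5, 25.1 and 23.7 CPM in cKO and 29.3, 25.4 and 34.2 CPM in WT, which overlapped.

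Zbtb7b (ThPOK) was 5.16, 13.4 and 16.6 CPM in cKO at 48 h, against 7.13, 6.27 and 6.39 CPM in WT at 48 h. The library labelled cKO replicate 1 was below all 3 WT libraries, and the other 2 cKO libraries were above them. At 0 h it was 4.61, 3.49 and 4.99 CPM in cKO, against 11.7, 4.17 and 9.97 CPM in WT, where replicate 2 was low. The 3 CD4 T cell markers, Cd4, Cd40lg and Foxp3, summed to 29.1, 29.4 and 39.8 CPM in cKO and 34.4, 25.9 and 33.8 CPM in WT at 48 h. At 0 h they summed to 18.2, 19.0 and 22.0 CPM in cKO and to 37.8, 25.4 and 30.7 CPM in WT, so WT replicate 2 was again the lowest of its group and the sum in cKO was higher at 48 h than at 0 h. The 3 markers differed in direction: at 48 h Cd4 averaged 16.6 ± 1.93 CPM in cKO and 18.7 ± 2.34 CPM in WT (SD, n = 3 each), Cd40lg was 6.16, 3.13 and 5.58 CPM in cKO and 8.11, 5.31 and 7.06 CPM in WT, and Foxp3 was 7.13, 11.1 and 15.4 CPM in cKO and 5.25, 4.27 and 8.01 CPM in WT. None of the 3 was called between the genotypes at 48 h (edgeR adjusted p 0.522, 0.435 and 0.0928). Over the 48 h in cKO, Cd40lg and Foxp3 rose and Cd4 was not called, with a log2 fold change of 0.10 ± 0.15. The part of CD4 T cells in the Zbtb7b result was not tested.

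At 0 h no member was called between the genotypes by edgeR, DESeq2 or limma-voom, beside 0.00806% of all tested genes by edgeR. At an unadjusted p under 0.05 by edgeR, 5 members were lower in cKO, 13.5% beside 5.08% of all tested genes, and none was higher, beside 4.30%. The 5, chosen after their values were seen, were Zbtb2, Zbtb6, Zbtb7b, Zbtb33 and Zbtb34. Of these, Zbtb2, at 44.4 to 46.2 CPM in cKO and 54.1 to 57.0 CPM in WT, Zbtb33, at 37.6 to 45.1 CPM in cKO and 46.3 to 52.4 CPM in WT, and Zbtb34, at 9.10 ± 1.78 CPM in cKO and 12.4 ± 0.479 CPM in WT (SD, n = 3 each), did not overlap between the genotypes. In all, 6 members were all lower in cKO at 0 h (16.2%, beside 7.35% of all tested genes) and 1, Zbtb49, was all higher (2.70%, beside 7.32%).

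The interaction, which is the cKO change over 48 h minus the WT change, was called for Zbtb4 alone, beside 0.105% of all tested genes called higher and 0.00806% called lower. It was 0.86 ± 0.14 on the log2 scale (95% interval 0.54 to 1.17, edgeR adjusted p 0.0301), since Zbtb4 fell less in cKO. Its estimate stayed near this size when single libraries were left out, but it lost the call when any one of cKO replicates 1, 2 or 3 at 0 h, WT replicates 2 or 3 at 0 h, cKO replicate 2 at 48 h or WT replicates 2 or 3 at 48 h was absent, or both WT replicate 3 libraries. Without cKO replicate 1 at 48 h, 4 members were called higher, beside 4.10% of all tested genes called higher and 3.50% called lower. Without both libraries labelled cKO replicate 1, 5 were called higher, beside 3.53% of all tested genes called higher and 3.34% called lower. These 5 were Zbtb4 at 0.96 ± 0.12, Zbtb20 at 1.37 ± 0.34, Zbtb37 at 0.57 ± 0.16, Zbtb18 at 0.88 ± 0.18 and Zbtb7b at 2.21 ± 0.46 on the log2 scale. At an unadjusted p under 0.05 with all libraries, 10 members were higher and none lower, 27.0% beside 9.78% and 0% beside 6.93% of all tested genes.

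**Figure D4:**
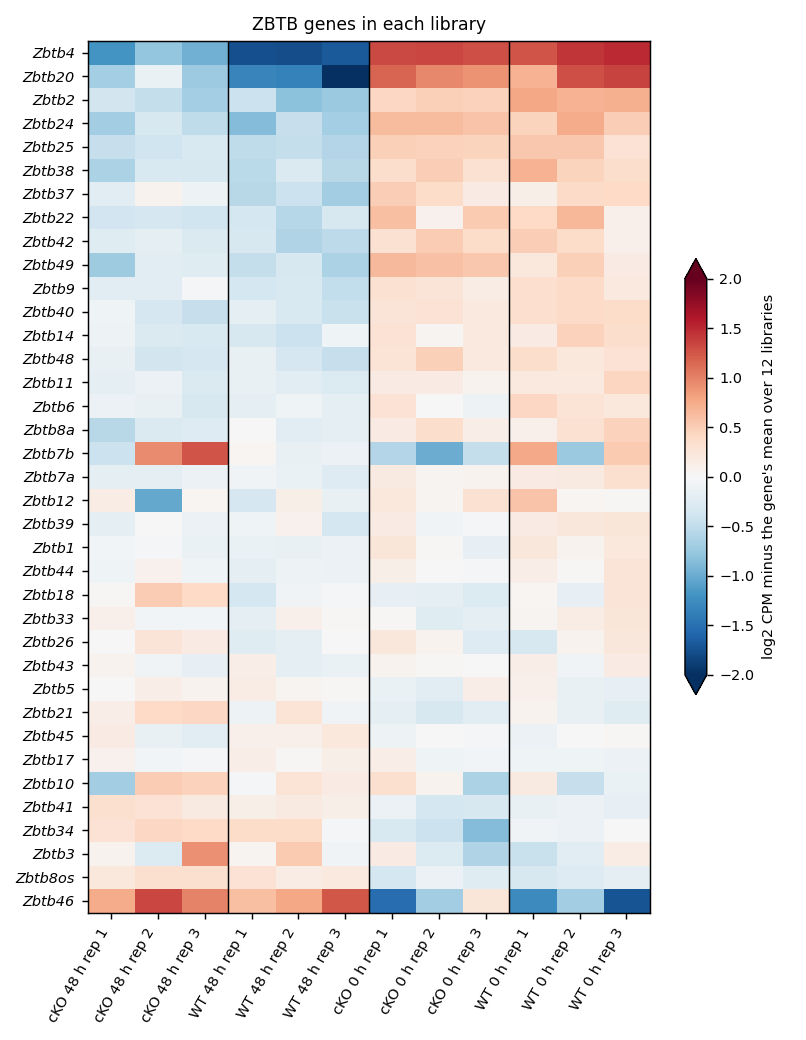
Level of each tested ZBTB gene in each of the 12 libraries, as log2 CPM minus the gene's mean over the libraries, with genes ordered by their change over 48 h in WT (top, largest fall). The 0 h libraries are red and the 48 h libraries blue for the upper rows, and the Zbtb7b row differs between libraries of 1 group more than its neighbours do, from 5.16 to 16.6 CPM in cKO at 48 h.

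Of the members with a known part in T cell development, Zbtb7a (LRF), which acts with ThPOK in mouse CD4 T cells, was the most abundant at 48 h per kilobase. It was 112, 112 and 117 CPM in cKO and 121, 116 and 107 CPM in WT at 48 h, and 144, 132 and 134 CPM in cKO and 143, 145 and 159 CPM in WT at 0 h. The time groups did not overlap, and the log2 fold change over 48 h was -0.27 ± 0.072 in cKO and -0.38 ± 0.072 in WT. Zbtb1, needed for lymphocyte development in the mouse, was 81.9, 83.2 and 77.4 CPM in cKO and 77.5, 76.9 and 78.0 CPM in WT at 48 h. At 0 h it was 100.2, 85.8 and 75.9 CPM in cKO, which overlapped with 48 h, and 99.8, 89.0 and 97.8 CPM in WT, which did not, for a log2 fold change of -0.30 ± 0.090 in WT.

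The 3 members left out of the main tests had few reads. Zbtb16 (PLZF) had 0 counts in all 3 cKO libraries at 48 h, which allows levels of up to 0.0767, 0.0797 and 0.0786 CPM at 3 counts each, and 1, 7 and 1 counts in WT at 48 h. At 0 h it had 18, 3 and 1 counts in cKO and 14, 7 and 8 counts in WT. Zbtb8b had 13, 3 and 1 counts in cKO and 1, 7 and 4 counts in WT at 48 h, and 9, 1 and 6 counts in cKO and none in WT at 0 h. Zbtb7c had 6 counts in WT replicate 2 at 0 h and none elsewhere. These limits cover counting error only. Some alternatives did test these members. With no low-count filter and with DESeq2, Zbtb16 was called lower over the 48 h in cKO and Zbtb8b higher in WT. Zbtb16 was also called lower in cKO when some single libraries were left out.

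Levels of the members differed widely. Per kilobase of merged exon (GENCODE release 21 for mouse), the highest at 0 h in WT were Zbtb25 at 24.6 ± 2.40, Zbtb7a at 21.9 ± 1.28, Zbtb22 at 15.9 ± 3.13, Zbtb4 at 14.0 ± 1.14 and Zbtb17 at 11.6 ± 0.208 CPM per kilobase (SD, n = 3). Zbtb25 and Zbtb7a, and likewise Zbtb22 and Zbtb4, lay within their spread of each other. At 48 h Zbtb7a led, at 16.7 ± 0.424 in cKO and 16.7 ± 1.04 in WT. Replicates of the tested members had a median coefficient of variation of 8.70% in cKO and 9.39% in WT at 48 h, and 8.25% in cKO and 9.73% in WT at 0 h.

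The strand setting of the counting is not stated, and 18 of the 40 members share exon bases with another annotated gene, so their counts are uncertain. The share was 92.8% for Zbtb9, mostly with Ggnbp1 on the same strand, 15.6% for Zbtb37 with Serpinc1 on the opposite strand, and 11.5% for Zbtb11 with 3 genes. Zbtb4, Zbtb2, Zbtb24, Zbtb25, Zbtb38 and Zbtb46 shared none, and Zbtb20 shared 0.609%. Some members lie next to each other in the RefSeq annotation. Of these, Zbtb25 and Zbtb1 overlap as gene bodies and fell by 0.98 and by 0.30 in WT on the log2 scale, and Zbtb8os and Zbtb8a went in opposite directions.

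The deposited annotation names the ZBTB family for 10 more genes, among them Zbtb32, and 8 of these were in the list of BTB zinc finger genes with other symbols. Zfp651 was not in the list. Of the 8, 4 rose and 2 fell over the 48 h in cKO, beside 36.4% and 36.2% of all tested genes. In WT 3 rose and 2 fell, beside 36.9% and 38.4%. Bcl6, the repressor that directs follicular helper T cells, was 6.88, 7.01 and 7.42 CPM in cKO at 48 h, against 13.4, 18.2 and 10.7 CPM at 0 h, a log2 fold change of -0.99 ± 0.17. The level in WT was 4.11, 4.73 and 4.65 CPM at 48 h, against 17.9, 14.6 and 15.4 CPM at 0 h, a log2 fold change of -1.83 ± 0.18. At 48 h the cKO libraries held more Bcl6 than any WT library, but the difference was not called (edgeR adjusted p 0.0530). Mynn fell in WT by 0.71 ± 0.084, while Gzf1 and Hic1 rose, with log2 fold changes of 0.85 ± 0.13 and 1.54 ± 0.42.

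Among 34 corepressor genes, 11 went up and 15 down in cKO (median log2 fold change 0.04), beside 36.4% and 36.2% of all tested genes. In WT 11 went up and 16 down (median -0.13), beside 36.9% and 38.4%. Rbbp7, a histone-binding subunit of the SIN3 and NuRD complexes, rose by 1.45 ± 0.074 in WT on the log2 scale. Mta3, a NuRD subunit, fell by 1.34 ± 0.073, Gps2, a subunit of the NCOR complex, by 1.11 ± 0.077, and Ncor1 itself by 0.97 ± 0.082. None of the 34 was called between genotypes at 0 h, beside 0.00806% of all tested genes. At 48 h none was called either, beside 3.10% of all tested genes called higher and 1.09% called lower.

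Of 14 lineage genes tied to ZBTB factors, 3 rose and 8 fell in cKO, beside 36.4% and 36.2% of all tested genes. In WT 3 rose and 9 fell, beside 36.9% and 38.4%. Cdkn1a, which encodes the cell cycle inhibitor p21 and is repressed by several ZBTB proteins in other cells, was 45.2, 64.7 and 78.6 CPM in cKO at 48 h, against 0.449, 0.317 and 0.388 CPM at 0 h. WT libraries held 59.6, 87.0 and 90.8 CPM at 48 h, against 0.526, 0.197 and 0.824 CPM at 0 h. Its log2 fold change was 7.34 ± 0.34 in cKO and 7.25 ± 0.32 in WT. Tcf7, Cd8b1 and Lef1 fell in WT by 2.39 ± 0.095, 1.93 ± 0.071 and 1.87 ± 0.091. At 48 h Satb1, a chromatin organiser of T cells, was the 1 gene of this list called between genotypes, at 448, 448 and 472 CPM in cKO, against 564, 543 and 551 CPM in WT, a log2 difference of -0.28 ± 0.067 (edgeR adjusted p 0.0358). Of all tested genes, 3.10% were called higher and 1.09% lower in cKO at 48 h.

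Zbtb32, left out of the members by the rule, was 79.3 to 120.5 CPM in cKO and 143 to 179 CPM in WT at 48 h, and at most 0.688 CPM in any 0 h library.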

How the data were processed

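RNA-seq libraries of spleen CD8 T cells were prepared with a NEBNext Ultra kit from 3 µg of TRIzol-extracted RNA, per the labels' protocols. The submitters' processing notes name fastp 0.20.1, FastQC 0.11.9, HISAT2 2.1.0, SAMtools 1.9, HTSeq 0.11.2 and build GRCm39; strand and other settings are not given in the sources used here. The authors deposited 1 table of unnormalized whole-number counts for 16352 genes and 12 libraries, and 0 value columns were left without a label.

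Tests used edgeR 4.0.16 (R 4.3.3, limma 3.58.1): filterByExpr with a minimum count of 10 and total of 15, TMM scaling, and 1 quasi-likelihood model of 4 group means with 8 residual degrees of freedom. From it 5 comparisons were drawn, adjusted by the Benjamini-Hochberg method over 12404 genes and called under 0.05. The code was tested on simulated data. CPM are edgeR's, with TMM factors, and precision is that of counting plus the spread of 3 libraries; the median count of a tested member was 829 to 1217 by group.

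Members and gene lists were chosen with earlier results of these data known. Values in every library are given for members called between genotypes or in the interaction, for up to 8 called members with the highest and 8 with the lowest WT time change (mean in WT 1 CPM or more), and for Zbtb1, Zbtb7a, Zbtb7b, Zbtb16, Zbtb17, Zbtb20 and Zbtb25. From each related list up to 4 called genes with the smallest adjusted p in WT are named. Others named are said to be chosen after their values were seen or stand for a count: Zbtb18, Zbtb21, Zbtb33, Zbtb34 and Satb1.

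Alternatives were RLE and upper-quartile scaling, no low-count filter or one at 1 CPM on average, the tools DESeq2 1.42.0 and limma-voom, only the 2 groups compared, a replicate block, leaving out each library, both libraries labelled cKO replicate 1, or both WT replicate 3 libraries. Promoters come from RefSeq (GRCm38.p6) and exon lengths from GENCODE mouse release 21 (GRCm38); the counts' build differs, so no gene coordinates are given for them.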

Additional observations from a re-analysis of the deposited data

Results flagged for a closer look

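The change of Zbtb4 over 48 h differed between the genotypes by a test of that difference, with an interaction (cKO change minus WT change) of 0.86 on the log2 scale. Zbtb4 fell to 18.9, 25.4 and 22.2 CPM in cKO at 48 h and to 12.8, 12.6 and 13.5 CPM in WT at 48 h, while at 0 h the genotypes overlapped, at 106 to 109 CPM in cKO and 104 to 122 CPM in WT. The library labelled cKO replicate 1, whose Trmt61a was at the WT level, was the lowest cKO library for Zbtb4 at 48 h but still above all WT libraries. Why the genotypes differ was not tested.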

How the results depend on the processing

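Of 54 single-gene results, 43 kept their call under every alternative run for them, 11 lost it under at least 1, and 0 changed sign. The counts of members changed most with the libraries kept. For cKO against WT at 48 h, 3 members were called higher; the count was 1 with only the 2 groups compared, 5 without both libraries labelled cKO replicate 1, 1 without both WT replicate 3 libraries, and 1 to 6 when single libraries were left out. The count called lower, 0 at first, was 1 without both libraries labelled cKO replicate 1 and 0 to 1 when single libraries were left out. With single libraries left out, 0.369% to 9.43% of all tested genes were called higher and 0.0472% to 8.32% lower. The interaction, with 1 member called higher, had 2 without a filter on low counts, 4 with DESeq2, 5 without both libraries labelled cKO replicate 1, 0 without both WT replicate 3 libraries and 0 to 4 when single libraries were left out. The share of all tested genes called higher, 0.105% at first, was 0.593%, 1.93%, 3.53%, 0% and 0% to 4.10% under the same alternatives. In WT over 48 h, 4 members rose; this was 2 with upper-quartile scaling, and the cause was not tested beyond the shift of all genes it makes. Over all genes, cKO against WT at 48 h gave 384 higher and 135 lower, and 82 and 56 with only the 2 groups compared, 702 and 352 with DESeq2, 1133 and 1110 without both libraries labelled cKO replicate 1 and 15 and 1 without both WT replicate 3 libraries. Deviations of same-numbered libraries from their group means had r from -0.12 to 0.15 over all comparisons, and 0.03 to 0.15 between the times of a genotype. This cannot decide whether a number marks the same mouse at both times, because each mean rests on only 3 libraries. Trmt61a was at the WT level in both libraries labelled cKO replicate 1, and the deposited column names of a replicate differ only by the hour. Replicate numbers here are those of the sample titles, and the deposited column names give WT replicates 2 and 3 other numbers. The main tests use no pairs. The replicate block matched same-numbered libraries of the 2 genotypes for cKO against WT, where the labels give no link, and of the 2 times otherwise. With it, 4 members were higher at 48 h in cKO (Zbtb4, Zbtb18, Zbtb20 and Zbtb37), and 633 genes were called higher and 641 lower in all. The interaction had 1, and the counts that rose and fell over 48 h were 7 and 17 in cKO and 4 and 21 in WT. Depth limits Zbtb16, Zbtb7c and Zbtb8b, which had 18 counts or fewer in every library.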
